A study of Triticum aestivum with 4 samples.

Results

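Leaves of drought-stressed wheat were compared with leaves of watered wheat, isogroup by isogroup. An isogroup is a set of assembled reads that are linked to each other and is the nearest thing to a gene in these data, and an isotig is 1 transcript of it. Each isogroup was represented by the isotig with most reads over both leaf libraries, and it was kept where that isotig had at least 10 reads. Of 16585 leaf isogroups, 3428 met this minimum and 13157 did not. The kept isogroups held 84.6% of the counted reads of the control library and 79.6% of those of the drought library. A match at an E-value of 0.001 or lower gave a name to 3169 of them, 2974 of these names being from Arabidopsis thaliana. Names are therefore those of the most similar protein, and no wheat gene identifier or genome position is given.

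The plants belonged to the cultivar MGS1 Aliança and were harvested at 5 weeks of age, while tillering. In the control group, the pot had been held at 100% of field capacity for all 5 weeks. In the drought group, the pot had been held at 75% of field capacity for 2 weeks and had then gone without water for 3 weeks. Leaves of the 3 plants of a pot were pooled, which gave 1 library per condition, so no difference below has a replicate check. Roots of the same pots made up the other 2 of the 4 libraries of the study.

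Leaves that lose water close their stomata, which limits the supply of CO2 to the chloroplast. The hormone abscisic acid (ABA) rises in such leaves and acts through receptors, clade A protein phosphatases and SnRK2 kinases on genes for protective proteins and compatible solutes such as proline. Transcripts for photosynthesis are made in the nucleus for the small subunit of Rubisco and the light-harvesting antenna, and in the chloroplast itself for the large subunit and the reaction centre proteins.

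The leaf control library held 319997 reads and the leaf drought library 299134. Over the chosen isotigs these came to 139207 and 126195 reads, which served as the library totals. The largest isotig, contig00004, had no match and held 29705 control and 31379 drought reads, 21.3% and 24.9% of the totals. The genes that mark photosynthetic leaf cells (RBCS1A, LHCA and LHCB genes, RCA, CA1 and CA2) took up 11.3% of all reads in the leaf control and 1.97% in the leaf drought library, against 0.0173% and 0.00467% in the 2 root libraries, so the leaf label was borne out in both conditions. Root tissue markers were rare in leaves, with 60 control and 51 drought reads over 11 isogroups, 2 and 1 of which had no read. Markers of phloem and xylem had 40 control and 92 drought reads over 22 isogroups, and their part in the results was not tested.

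The test was the one the study used, the MARS model of the DEGseq package, and calls were made at an unadjusted p under 0.001. With 1 library on each side, this test compares 2 libraries and not 2 conditions, and all intervals below are 95% exact intervals that cover counting error only. Folds are ratios of drought to control reads, each divided by its library total. Up-regulated and down-regulated stand for isogroups past this threshold. Of the 3428 isogroups, 342 (9.98%) were up-regulated and 354 (10.3%) were down-regulated, together 20.3%. The median log2 ratio of all isogroups tested was 0.14, so medians of gene groups are to be read against that value. With the library size taken as the sum of all isotigs, in which the reads of shared contigs repeat, that median was 0.53 and the calls became 541 up-regulated and 266 down-regulated isogroups, and the share of up-regulated ones went from 49.1% to 67.0%. An edgeR exact test that assumed a coefficient of variation of 0.4 between pools called only 50 up-regulated and 33 down-regulated isogroups.

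The direction of the calls depended on how many reads an isogroup had. Of 92 isogroups with at least 200 reads, 50 were down-regulated (54.3%) and 14 up-regulated (15.2%). Of 1893 isogroups with 10 to 19 reads, 44 were down-regulated (2.32%) and 113 up-regulated (5.97%). Among the calls, 289 up-regulated and 245 down-regulated isogroups differed by at least 4-fold, and 212 and 125 by at least 8-fold. Control reads were absent from 133 of the isogroups tested and drought reads from 49. Such isogroups reached the minimum of 10 reads through the other library alone.

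**Figure D1:**
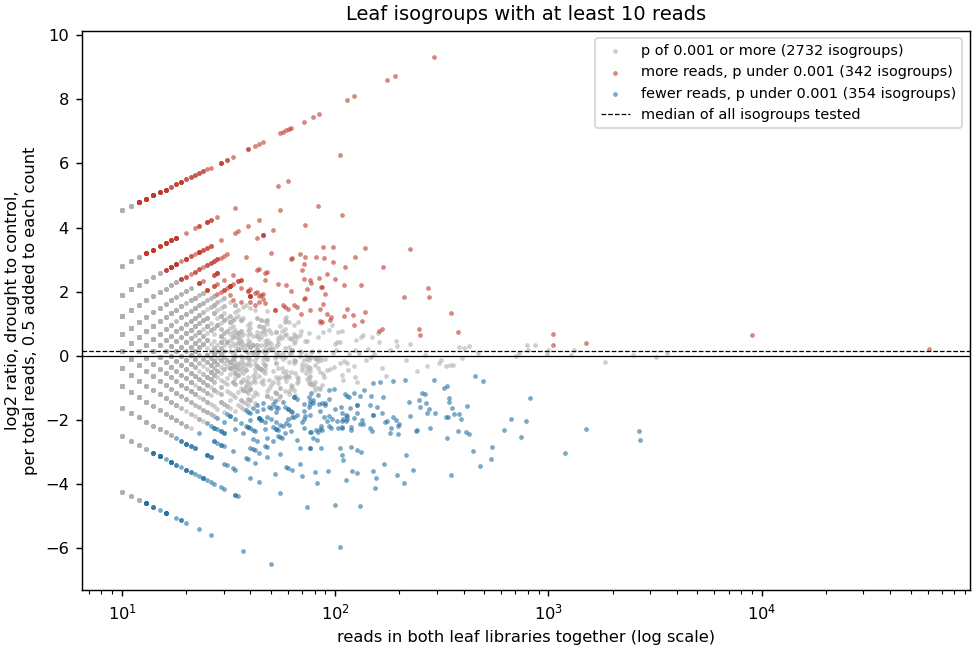
Each point is 1 of 3428 leaf isogroups, with its reads in both libraries on a log axis and its log2 ratio of drought to control on the y axis (0.5 added to each count). Red points are the 342 up-regulated and blue points the 354 down-regulated isogroups, and the dashed line is the median of 0.14. Of the down-regulated isogroups, 245 are at least 4-fold lower and 50 have 200 or more reads, and the straight lines of points at the left come from isogroups with 0, 1, 2 or a few reads in 1 library.

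The largest group of down-regulated isogroups held the nuclear genes of the light reactions. Of 108 isogroups in this list, 74 were down-regulated and 2 up-regulated, and the median log2 ratio was -2.04. Their reads made up 7.07% (6.94 to 7.21) of the control library and 1.89% (1.82 to 1.97) of the drought library. Fewer photosynthetic cells and less of these transcripts per cell cannot be told apart in pooled leaves.

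The antenna of photosystem II, which collects light and passes the energy to the reaction centre, held most of these calls. Of its 47 isogroups, 42 passed the test as down-regulated and 0 as up-regulated, and drought reads were 4.80 times lower (4.47 to 5.15). The name LHB1B2 alone stood for 33 isogroups, 30 of them down-regulated, and isogroups of 1 name can share similar reads. LHCB4.1, a minor antenna protein, had 491 control and 47 drought reads (isotig01641), 9.47 times lower (7.01 to 13.1). The LHB1B2 isogroup with most reads, a major antenna protein, had 327 control and 22 drought reads (isotig07408), 13.5 times lower (8.75 to 21.8). In the smaller antenna of photosystem I, 5 of 6 isogroups were down-regulated, among them LHCA4 from 289 to 44 reads, and summed reads were 5.17 times lower (4.27 to 6.32), an interval that overlaps that of the photosystem II antenna.

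The reaction centre complexes showed the same direction with smaller ratios. Of 14 isogroups of nuclear photosystem II subunits, 8 were down-regulated, and their summed reads were 3.46 times lower (3.13 to 3.82). PSBO2, a protein that stabilises the water-splitting manganese cluster, went from 639 to 142 reads (isotig00722), 4.08 times lower (3.40 to 4.93). Of 20 isogroups of photosystem I subunits, 14 were down-regulated, with summed reads 3.05 times lower (2.71 to 3.43). Of 7 isogroups of plastocyanin (DRT112) and the ATP synthase subunits ATPC1 and ATPD, 5 were down-regulated, and the log2 ratios of all 7 lay between -2.36 and -1.14.

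Exceptions were found within the list. ELIP1, an early light-induced protein of stressed thylakoids, had 3 control and 48 drought reads in isotig04476, a ratio of 17.6 (5.69 to 88.6), and was up-regulated there. The other 6 ELIP1 isogroups had 3 to 12 drought reads and did not pass the test. PSAK, a photosystem I subunit, was down-regulated in isotig02349, from 85 to 31 reads, and up-regulated in isotig18275, from 0 to 12 reads.

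Most isogroups of carbon fixation had fewer drought reads, as those of the light reactions did. In the list of the Calvin cycle and Rubisco, 32 of 38 isogroups were down-regulated and 1 was up-regulated, with a median log2 ratio of -2.49. The share of reads was 9.42% (9.26 to 9.57) in control and 1.65% (1.58 to 1.72) in drought, 5.70 times lower (5.45 to 5.98). RBCS1A, the small subunit of Rubisco, was represented by 16 isogroups, and each was down-regulated. The isogroups with most reads had 2356 control and 345 drought reads (isotig00008) and 2248 and 401 reads (isotig02303), 6.19 times lower (5.53 to 6.95) and 5.08 times lower (4.57 to 5.67). In isotig02320, 442 control and 36 drought reads made the ratio wider, 11.1 times lower (7.92 to 16.1).

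RCA, the activase that removes inhibitory sugar phosphates from Rubisco, had 1261 control and 236 drought reads (isotig00922), 4.84 times lower (4.21 to 5.59). CA2, a carbonic anhydrase that interconverts CO2 and bicarbonate, had 1075 and 118 reads (isotig02146), 8.26 times lower (6.82 to 10.1), and 396 and 45 reads in a second isogroup (isotig03417), 7.98 times lower (5.85 to 11.1). Each of these drought values lay far below its control value.

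Genes of the reduction and regeneration steps of the cycle were down-regulated too. GAPA-2 and GAPB, the subunits of the chloroplast glyceraldehyde 3-phosphate dehydrogenase, went from 643 to 100 reads (isotig00292) and from 485 to 60 reads (isotig00060), 5.83 times lower (4.72 to 7.27) and 7.33 times lower (5.60 to 9.75). FBA2, a plastid aldolase, had 523 control and 95 drought reads (isotig00406), 4.99 times lower (4.00 to 6.28). PRK, the phosphoribulokinase that makes the CO2 acceptor, had 288 and 73 reads. The up-regulated member was RbcX2, a Rubisco assembly factor, with 30 control and 57 drought reads, and it did not pass the test with TMM, with the size factors or with the library totals given in the deposited table.

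**Figure D2:**
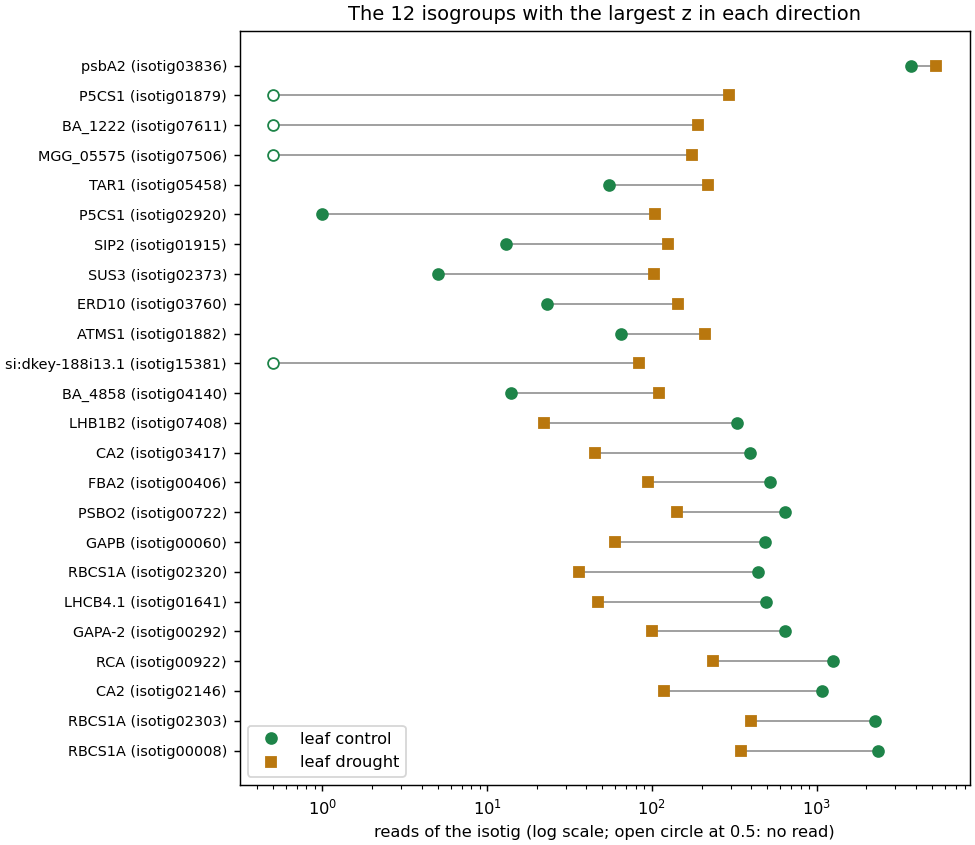
Reads in the leaf control library (green circles) and the leaf drought library (brown squares) on a log axis, for the 12 named isogroups with the largest z in each direction, each labelled by its name and isotig. An open circle stands for no read. The lower 12, from LHB1B2 to RBCS1A, are all photosynthesis genes with 327 or more control reads, while 4 of the upper 12 had no control read.

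Photorespiration, the salvage pathway for the oxygenation product of Rubisco, had 10 of 11 isogroups down-regulated and none up-regulated, with a median log2 ratio of -1.51. GLDP1, the P protein of glycine decarboxylase, had 602 control and 217 drought reads (isotig00096), 2.51 times lower (2.15 to 2.95). GDCSH, the H protein of the same complex, had 141 and 30 reads (isotig09303), 4.26 times lower (2.86 to 6.55). GS2, the plastid glutamine synthetase that recaptures the released ammonia, had 151 and 36 reads (isotig01340), 3.80 times lower (2.63 to 5.63). The summed reads of the list were 2.56 times lower (2.34 to 2.802), an interval that lies below that of the Calvin cycle list.

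Chlorophyll synthesis had 11 of 19 isogroups down-regulated and none up-regulated, with a median log2 ratio of -1.85. GUN5, the large subunit of magnesium chelatase, had 317 control and 72 drought reads (isotig00148), 3.99 times lower (3.08 to 5.23). HEMA1, the glutamyl-tRNA reductase at the start of the pathway, was down-regulated in all 5 of its isogroups, among them isotig05584 from 81 to 15 reads, 4.90 times lower (2.8 to 9.15), and isotig05566 from 69 to 12 reads, 5.21 times lower (2.801 to 10.6). GUN4, which assists the chelatase, had 16 control reads and none in drought, at least 4.83-fold lower.

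Genes carried by the chloroplast genome did not share this direction. Of 14 isogroups in the list, 6 were up-regulated and 1 down-regulated, with a median log2 ratio of 0.35. Median-of-ratios size factors made this 3 and 2, while the sums of all isotigs made it 10 and 0. Of these 14, 5 carried the name psbA2, and 4 of the 6 up-regulated isogroups were among them. The log2 ratios of the psbA2 isogroups ran from -2.10 to 2.13. The psbA2 isotig with most reads, which matches the D1 protein of the photosystem II reaction centre, had 3722 control and 5329 drought reads (isotig03836), 1.58-fold higher (1.51 to 1.65), and isotig08900 had 17 and 69 reads, 4.48-fold higher (2.605 to 8.12). The large subunit of Rubisco, rbcL, had 1702 and 1499 reads (isotig05924), a fold of 0.972 (0.906 to 1.04), and its direction depended on the scaling. It passed the test as down-regulated with the size factors or relative to the median of all isogroups, at a log2 ratio of -0.18, and as up-regulated with the sums of all isotigs, at 0.35. The down-regulated member was ndhD1, a subunit of the chloroplast NAD(P)H dehydrogenase, from 324 to 169 reads (isotig00536), 1.74 times lower (1.44 to 2.11), a call lost with the sums of all isotigs. Summed over its 16 isogroups, RBCS1A, which encodes the partner subunit of rbcL in Rubisco, was 6.80 times lower (6.35 to 7.30).

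Levels between genes were compared per length with the RPKM values of the authors. After contig00004, psbA2 ranked highest among the isogroups tested in both libraries, with an RPKM of 9807 in control and 15021 in drought. RBCS1A in isotig02303 held rank 3 in control, at 8314, and rank 15 in drought, at 1586. The large subunit rbcL moved from rank 9 to rank 7, with an RPKM of 3034 and 2859. CA2 (isotig02146) moved from rank 12, at 2602, to rank 55, at 306, and LHCB4.1 from rank 25 to rank 168. In the drought library the level per length of rbcL was thus above that of every single RBCS1A isogroup, while in control it was below isotig02303 and isotig00008. RBCS1A was split over 16 isogroups and rbcL is given by 1 isotig. This order therefore does not compare the summed levels of the subunits.

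The proline list had a median log2 ratio of 4.90, or 2.26 with 3 reads in place of 0. P5CS1, the enzyme of the first committed step from glutamate to proline, had no control read and 292 drought reads in isotig01879. That was at least 107-fold higher against 3 reads, with an exact lower limit of 86.8. In isotig02920 it had 1 and 104 reads, a ratio of 115 (20.1 to 4574). DELTA-OAT, the ornithine aminotransferase, had 0 and 13 reads (isotig01704), at least 4.78-fold higher. ALDH12A1, a dehydrogenase that breaks proline down to glutamate, also had 0 control and 13 drought reads. In all, 4 of 5 isogroups of the list passed the test, all as up-regulated. Its share of all reads was 0.00575% (0.00248 to 0.0113) in control and 0.338% (0.306 to 0.371) in drought.

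Late embryogenesis abundant (LEA) proteins and dehydrins, hydrophilic proteins that accumulate in drying cells, had 12 of 17 isogroups up-regulated and none down-regulated. The median log2 ratio was 2.76, or 2.36 with 3 reads in place of 0, since 6 of the isogroups had no control read. ERD10, a dehydrin, had 23 control and 144 drought reads in isotig03760, 6.91-fold higher (4.43 to 11.2), and 21 and 89 reads in isotig07517, 4.68-fold higher (2.88 to 7.92). AT3G15670, a LEA protein, was up-regulated in all 5 isogroups, and isotig04044 had 0 and 46 reads, at least 16.9-fold higher. The 5 members not called had log2 ratios from 0.03, for AT2G46140 with 13 and 12 reads, to 2.19, for AT2G44060 with 3 and 14. Only 3 of the 12 calls rested on matches with an E-value of 1e-20 or lower.

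A list of cold- and drought-regulated proteins, many but not all of membranes, was described next. Of its 14 isogroups, 9 were up-regulated and none down-regulated, with a median log2 ratio of 1.88. The calls include RD19, a cysteine protease also counted among the proteases, LTI65, also counted among the LEA proteins, and RD22, none of them a membrane protein. COR413-PM1, a cold-regulated protein of the plasma membrane, was up-regulated in its 4 isogroups. It had 4 control and 68 drought reads in isotig08764, 18.8-fold higher (6.997 to 70.8), 9 and 72 in isotig10027, 8.82-fold higher (4.40 to 20.1), and 8 and 39 in isotig06000, 5.38-fold higher (2.48 to 13.3).

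Of 10 isogroups of lipid transfer proteins, which carry lipids towards the cuticle and cell wall, 5 were up-regulated and none down-regulated, or 3 with TMM, the size factors, the totals given for the libraries or Fisher's exact test. Of the 5 calls, 1 rested on a match with an E-value of 1e-20 or lower. LTP4 had 8 and 64 reads in isotig08073, 8.82-fold higher (4.22 to 21.3), and 38 and 83 in isotig11977, 2.41-fold higher (1.62 to 3.64). LTP3 had 2 and 42 reads in isotig12487, a ratio of 23.2 (6.03 to 198). The intervals of the LTP4 isogroups did not overlap, so copies of 1 name differed in the size of the rise.

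**Figure D3:**
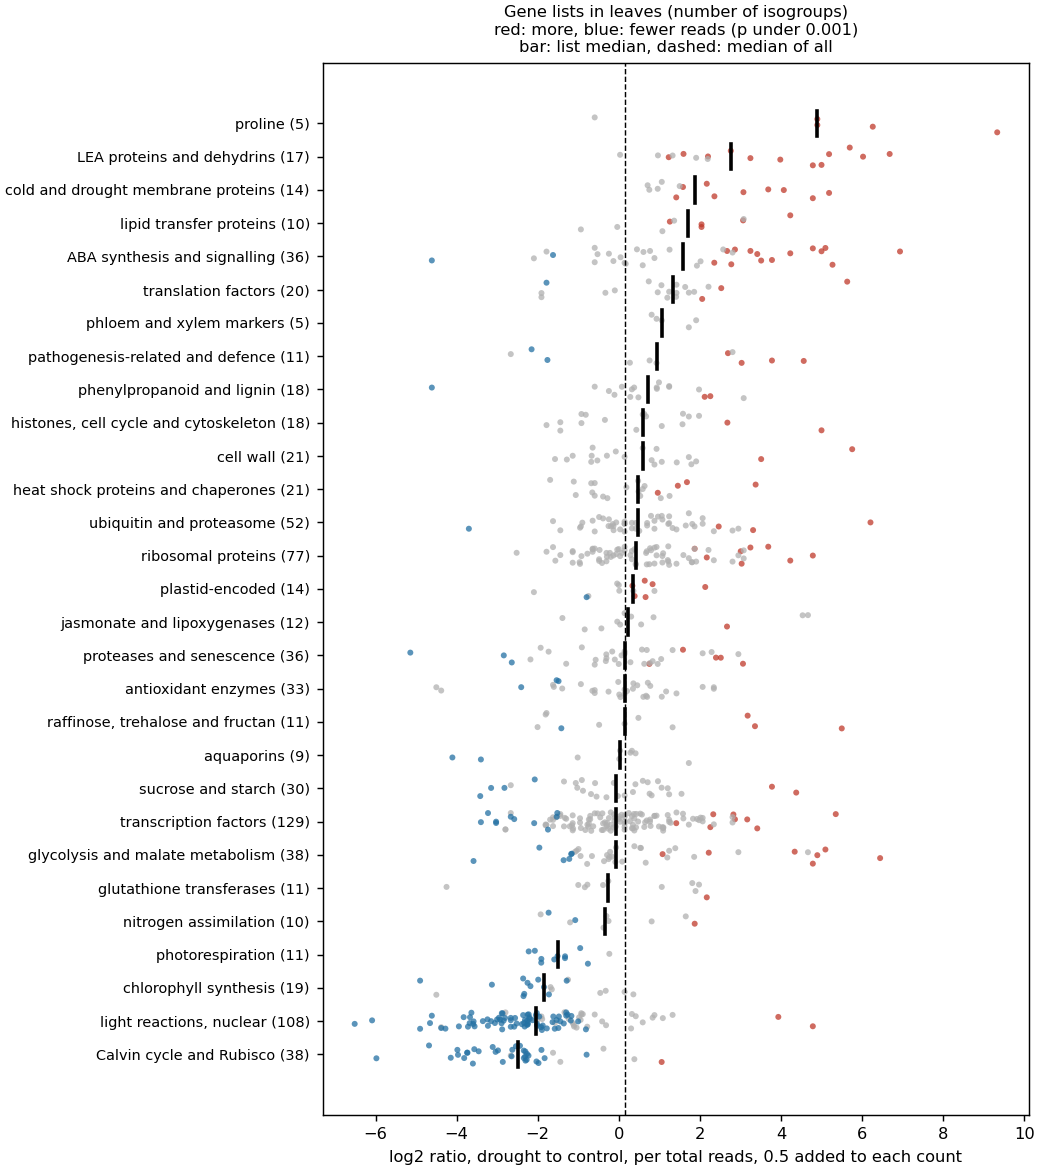
Log2 ratios of drought to control reads (0.5 added to each count) of the isogroups in 29 gene lists with at least 5 members, sorted by list median, with the number of isogroups in parentheses. Red points were up-regulated, blue points down-regulated and grey points not called, the black bars are list medians, and the dashed line is the median of 0.14 over all isogroups tested. The 4 photosynthesis lists at the bottom have medians between -2.49 and -1.51, and the proline and LEA lists at the top have medians of 4.90 and 2.76.

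ABA synthesis and signalling had 14 of 36 isogroups up-regulated and 2 down-regulated, with a median log2 ratio of 1.59. NCED3, which cleaves the carotenoid precursor of ABA, had 0 control and 17 drought reads, at least 6.25-fold higher. NCED4, a carotenoid cleavage enzyme of the same family, was down-regulated, from 42 to 12 reads. Among the phosphatases that hold the pathway back, HAB2 had 0 and 55 reads in isotig00645, at least 20.2-fold higher. All clade A phosphatases together (HAB1, HAB2, HAI2 and HAI3, chosen as a group after their values were seen) had 7 of 8 isogroups up-regulated, with 21 control and 193 drought reads.

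Among the kinases in the list, SNRK2.4 and OST1 had more drought reads. SNRK2.4, a SnRK2 kinase, was up-regulated in 3 isogroups, and isotig06288 had 1 control and 25 drought reads, a ratio of 27.6 (4.51 to 1132). OST1, the SnRK2 kinase of stomatal closure in Arabidopsis, had 1 and 15 reads. The calcium-linked CIPK and CPK kinases in the list were mixed, with 2 of 16 isogroups up-regulated and 1 down-regulated. CIPK5 had 3 and 43 reads (isotig03134), a ratio of 15.8 (5.06 to 79.7), and CIPK4 went from 13 reads to none. Without these 16, the list had 12 of 20 isogroups up-regulated and a median log2 ratio of 2.83, or 2.46 with 3 reads in place of 0.

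Transcription factors had few calls in either direction, 8 up-regulated and 10 down-regulated of 129 isogroups, or 6.20% and 7.75%, against background shares of 9.98% and 10.3%. HB-7, a homeodomain factor that ABA and drought induce in Arabidopsis, was up-regulated in its 3 isogroups, and isotig08869 had 0 control and 18 drought reads, at least 6.62-fold higher. OZF1, a zinc finger protein, had 3 and 28 reads (isotig01020), a ratio of 10.3 (3.18 to 52.9), and AT5G56840, a MYB-like factor, had 3 and 22 (isotig02659), a ratio of 8.09 (2.43 to 42.2). DREB1A, a cold-response factor, went down in both of its isogroups, from 17 to 1 and from 13 to 1 reads. The CONSTANS-like factors COL4 and COL5 were down-regulated in 2 of 4 isogroups and in 1 of 1. The calls of this list were fragile, with 7 up-regulated and 6 down-regulated by Fisher's exact test and none down-regulated with a coefficient of variation of 0.2.

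Carbohydrate enzymes did not move as a group, with 2 of 30 isogroups of sucrose and starch metabolism up-regulated and 4 down-regulated. Those shares, 6.67% and 13.3%, were near the background of 9.98% and 10.3%. SUS3, a sucrose synthase, had 5 control and 103 drought reads (isotig02373), 22.7-fold higher (9.43 to 71.5). BAM1, a plastid beta-amylase that degrades starch, had 3 and 43 reads (isotig02993), a ratio of 15.8 (5.06 to 79.7). Other enzymes of starch and maltose use were down-regulated, PHS2, a phosphorylase, from 24 to 2 reads and DPE2, a glucanotransferase, from 39 to 8. SWEET2, a sugar transporter, had 29 and 2 reads (isotig04041), a ratio of 13.1 in the direction of lower drought reads (3.33 to 114). The summed reads of the list did not differ beyond counting error, with a fold of 1.07 (0.953 to 1.20).

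In the list of raffinose, trehalose and fructan, 3 of 11 isogroups were up-regulated and 1 down-regulated. Against a background of 9.98% and 10.3%, these were shares of 27.3% and 9.09% of few isogroups. SIP2, an alpha-galactosidase that acts on raffinose in Arabidopsis, had 13 control and 125 drought reads in isotig01915, 10.6-fold higher (5.98 to 20.5), and 7 and 61 reads in isotig02900, 9.61-fold higher (4.39 to 24.9). TPPG, a trehalose phosphate phosphatase, had 0 and 20 reads (isotig06019), at least 7.35-fold higher. The median of the list was 0.14, the same as that of all isogroups.

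In the list of glycolysis and malate metabolism, which also takes in aldehyde dehydrogenases, 7 of 38 isogroups were up-regulated and 6 down-regulated. That is 18.4% and 15.8%, against a background of 9.98% and 10.3%. Among the up-regulated ones, 4 were aldehyde dehydrogenases (ALDH5F1, ALDH10A8, ALDH10A9 and ALDH12A1, the last also in the proline list), and the others were PFK2, a phosphofructokinase, ADH1, an alcohol dehydrogenase, and NADP-ME1. By the GO term glycolysis, 1 of 28 isogroups was up-regulated and 9 were down-regulated. PPC3, a phosphoenolpyruvate carboxylase, had 112 control and 8 drought reads (isotig05338), 12.7 times lower (6.22 to 30.1). NADP-ME1, a malic enzyme, had 0 and 39 reads (isotig03016), at least 14.3-fold higher. ALDH10A9, an aldehyde dehydrogenase related to the glycine betaine enzymes, had 1 and 27 reads (isotig05923), a ratio of 29.8 (4.91 to 1219).

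Water channels had 2 of 9 isogroups down-regulated and none up-regulated. The down-regulated share, 22.2% of few isogroups, stood against a background of 10.3%. PIP2;4, of the plasma membrane, had 28 control reads and 1 drought read (isotig03896), and TIP1;3, of the vacuole membrane, had 17 and 1 (isotig03948). The ratios were 25.4 times lower (4.20 to 1038) and 15.4 times lower (2.41 to 644). The 7 others had 6 to 14 control and 6 to 19 drought reads, and the summed fold of the list was 0.779 (0.582 to 1.04).

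Protein turnover had calls in both directions. Of 36 isogroups of proteases and senescence, 5 were up-regulated and 3 down-regulated. These shares, 13.9% and 8.33%, were near the background of 9.98% and 10.3%, and the list median of 0.14 was that of all isogroups. ERD1, a regulatory subunit of the chloroplast Clp protease, had 10 control and 79 drought reads (isotig01436), 8.71-fold higher (4.50 to 18.9). GAMMA-VPE, a vacuolar processing enzyme, had 17 and 83 reads (isotig03392), 5.39-fold higher (3.17 to 9.68). The 3 down-regulated isogroups all matched the metacaspase MC1, and isotig03452 had 106 and 13 reads, 7.39 times lower (4.14 to 14.3). MC1 isogroups held 183 control and 21 drought reads in total.

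Of 52 isogroups of ubiquitin and the proteasome, 3 were up-regulated and 1 down-regulated. PUB19, a U-box ubiquitin ligase, had 0 control and 33 drought reads (isotig01952), at least 12.1-fold higher, and PUB17, of the same family, had 1 and 13 (isotig05673), a ratio of 14.3 (2.15 to 609). UBC36, a ubiquitin-conjugating enzyme, had 21 and 1 reads (isotig07462). The share of called members was below the background in both directions.

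Of 21 isogroups of chaperones, 4 were up-regulated and none down-regulated, or 2 with the size factors. J3, a DnaJ co-chaperone, had 2 and 23 reads (isotig06654), a ratio of 12.7 (3.13 to 111), HSP81-2, of the HSP90 family, had 17 and 43 (isotig01306), 2.79-fold higher (1.56 to 5.22), and cpHsc70-1, a chloroplast HSP70, had 44 and 78 (isotig00898), 1.956-fold higher (1.33 to 2.90). The last of these did not pass the test with the size factors.

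Of 77 isogroups of ribosomal proteins, 8 were up-regulated and none down-regulated, with a median log2 ratio of 0.42. The share of up-regulated members, 10.4%, was near the background of 9.98%. Among the 41 isogroups that carry no chloroplast term, 6 were up-regulated, the median was 1.09 and summed reads were 2.16-fold higher (1.84 to 2.53). In the 36 isogroups with a chloroplast term, 2 were up-regulated, the median was -0.17 and the summed fold was 1.08 (0.919 to 1.26). AT5G59240 had 1 and 25 reads (isotig04310), AT5G58420 had 3 and 25 (isotig08280), and UBI3, a ubiquitin fused to a ribosomal protein, had 2 and 21 (isotig05296).

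Of 20 isogroups of translation factors, 3 were up-regulated and 1 down-regulated. These shares, 15% and 5%, stood against a background of 9.98% and 10.3%. ERF1-3, a release factor, had 0 and 22 reads (isotig03164), at least 8.09-fold higher, and PAB8, a poly(A)-binding protein, had 4 and 23 (isotig05701), 6.34-fold higher (2.17 to 25.2). SCO1, the elongation factor G of the chloroplast, was the down-regulated one, from 85 to 22 reads (isotig00727), 3.50 times lower (2.17 to 5.88).

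Antioxidant enzymes had 3 of 33 isogroups down-regulated and none up-regulated. The share of down-regulated members, 9.09%, was near the background of 10.3%, and the list median of 0.14 was that of all isogroups. CAT2, a peroxisomal catalase that removes the hydrogen peroxide of photorespiration, had 97 control and 30 drought reads (isotig00918), 2.93 times lower (1.93 to 4.57). A 2-Cys peroxiredoxin had 66 and 21 reads (isotig04064), 2.85 times lower (1.72 to 4.90), and DHAR2, a dehydroascorbate reductase, had 20 and 3 (isotig08897), a ratio of 6.04 (1.79 to 31.8). These 3 calls were lost when a coefficient of variation of 0.2 was assumed. Of 11 isogroups of glutathione transferases, GSTL3 alone was up-regulated, from 6 to 26 reads (isotig07806), a share of 9.09% against a background of 9.98%.

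Nitrogen assimilation had 1 of 10 isogroups up-regulated and 2 down-regulated. These shares, 10% and 20% of few isogroups, stood against a background of 9.98% and 10.3%. The nitrate reductase NIA2 had 49 control and 13 drought reads (isotig00902), 3.42 times lower (1.83 to 6.87), and the nitrite reductase NIR1 had 96 and 41 (isotig00513), 2.12 times lower (1.46 to 3.14). ASN1, an asparagine synthetase, had 9 and 31 reads (isotig03092), 3.80-fold higher (1.77 to 9.07). These 3 calls were also lost at a coefficient of variation of 0.2, and that of NIR1 with the sums of all isotigs.

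The jasmonate and lipoxygenase list had 1 up-regulated isogroup of 12, a share of 8.33%, near the background of 9.98%. It was LOX2, a chloroplast lipoxygenase, with 10 control and 60 drought reads (isotig05368), 6.62-fold higher (3.36 to 14.5). The 3 other LOX2 isogroups were not called, with 137 and 127, 44 and 22, and 27 and 9 reads. Of 11 isogroups of pathogenesis-related and defence proteins, 4 were up-regulated and 2 down-regulated. That is 36.4% and 18.2% of few isogroups, against a background of 9.98% and 10.3%. PR4, a chitin-binding protein, had 2 and 53 reads (isotig12884), a ratio of 29.2 (7.70 to 248), and OSM34, an osmotin-like protein, had 3 and 43 (isotig10731), a ratio of 15.8 (5.06 to 79.7). RLP7, a receptor-like protein, had 51 and 10 (isotig05306), 4.62 times lower (2.32 to 10.2).

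Phenylpropanoid and lignin genes had 2 of 18 isogroups up-regulated and 1 down-regulated, and cell wall genes had 2 of 21 up-regulated. The up-regulated shares, 11.1% and 9.52%, were near the background of 9.98%. PAL4, which opens the phenylpropanoid pathway, had 7 and 29 reads (isotig03818), 4.57-fold higher (1.959 to 12.4), CCoAOMT1 of lignin synthesis had 4 and 19 (isotig09497), and TT5, a chalcone isomerase, had 13 and 0 (isotig15555), at least 3.93-fold lower. XTH13, a xyloglucan-modifying enzyme, had 0 and 24 reads (isotig06486), at least 8.82-fold higher, and CSLD2, a cellulose synthase-like protein, had 1 and 15 (isotig05661). In the list of histones, cell cycle and cytoskeleton, ADF11, an actin depolymerizing factor, had 0 and 14 reads (isotig12230), at least 5.15-fold higher, and the actin ACT7 had 2 and 14 (isotig03362). The ACT7 and CCoAOMT1 calls were lost by Fisher's exact test and with the size factors.

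The remaining lists, of root tissue, guard cell and epidermis, and phloem and xylem markers, had 3, 4 and 5 isogroups tested and no call. The 5 phloem and xylem isogroups had 22 control and 48 drought reads in total, a fold of 2.41 (1.43 to 4.19). Each of the 5 had 2 to 8 control reads and a log2 ratio between 0.81 and 1.91.

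**Figure D4:**
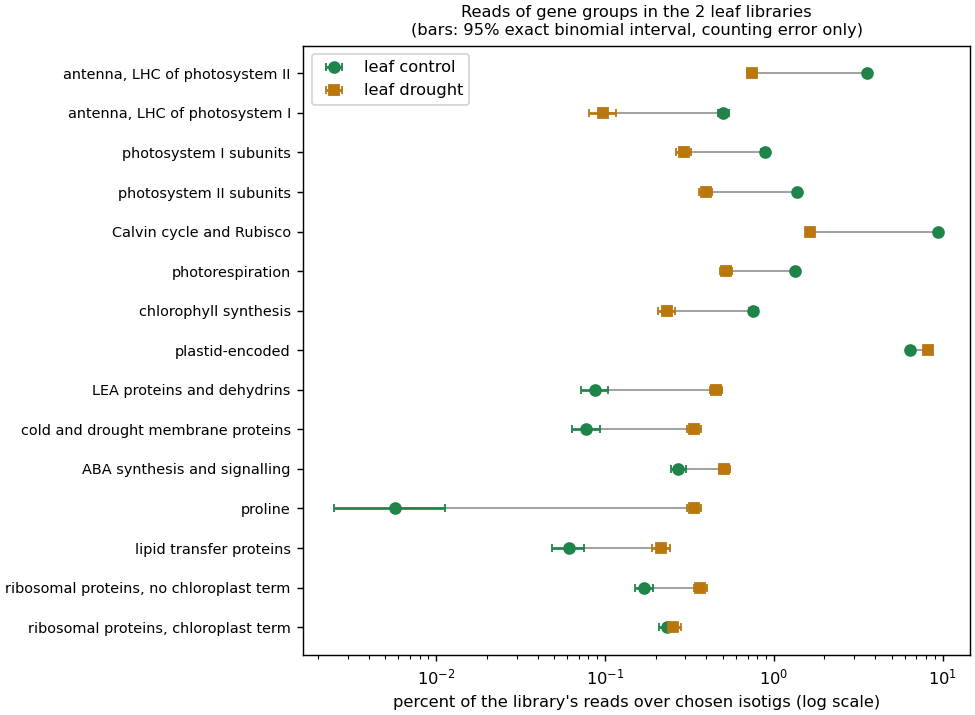
Percent of the library reads over chosen isotigs that fell to 15 gene groups, on a log axis, in the leaf control (green circles) and leaf drought library (brown squares). Bars are 95% exact binomial intervals and cover counting error only. The Calvin cycle group moved from 9.42% to 1.65% and the proline group from 0.00575% to 0.338%, while the ribosomal proteins with a chloroplast term had overlapping bars.

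Some of the most changed isogroups belong to none of the lists. ATMS1, a methionine synthase, had 65 control and 210 drought reads (isotig01882), 3.56-fold higher (2.69 to 4.78). TAR1, a yeast gene on the strand opposite to the ribosomal RNA genes, named an isogroup with 55 and 218 reads (isotig05458), 4.37-fold higher (3.24 to 5.99). The names BA_1222 and BA_4858 from Bacillus anthracis, MGG_05575 from Magnaporthe oryzae and si:dkey-188i13.1 from zebrafish came from matches of 32% to 43% identity and say little of the function or the origin of the isogroup. Their isogroups had 0 and 190 reads (isotig07611), 14 and 110 (isotig04140), 0 and 175 (isotig07506), and 0 and 84 (isotig15381). These were among the most strongly raised of all isogroups, at least 69.9-fold for BA_1222, at least 64.3-fold for MGG_05575 and at least 30.9-fold for si:dkey-188i13.1.

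Isogroups without a match had more up-regulated than down-regulated members. Of 259 tested, 41 were up-regulated and 14 down-regulated, against 301 and 340 of the 3169 with a match. Among them, isotig09384 had 22 control and 203 drought reads, 10.2-fold higher (6.54 to 16.6), and isotig10522 had 0 and 114. These isotigs of 909 and 813 bases were singled out after their values were seen. The second isogroup without a match among the 5 with most reads, isotig02872, had 1830 and 1751 reads, a fold of 1.06 (0.988 to 1.13).

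Several isogroups often shared 1 name, and these could be compared with each other. Of 2548 names, 408 were carried by at least 2 isogroups, and 67 of these had at least 2 calls. In 65 of the 67 all calls went in 1 direction. The 2 exceptions were PSAK, described above, and AT1G62660, a vacuolar invertase, with 8 and 31 reads in isotig00256 but lower reads in the 3 other isogroups. Of 33 LHB1B2 isogroups, 30 were down-regulated, with log2 ratios from -6.52 to -1.17, and those not called had 10 to 15 control reads. The 16 RBCS1A isogroups spanned log2 ratios from -5.98 to -2.27, and 1 of them (isotig10507) went from 104 reads to 1. Isogroups of 1 name can share similar reads, so they are not independent of each other.

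**Figure D5:**
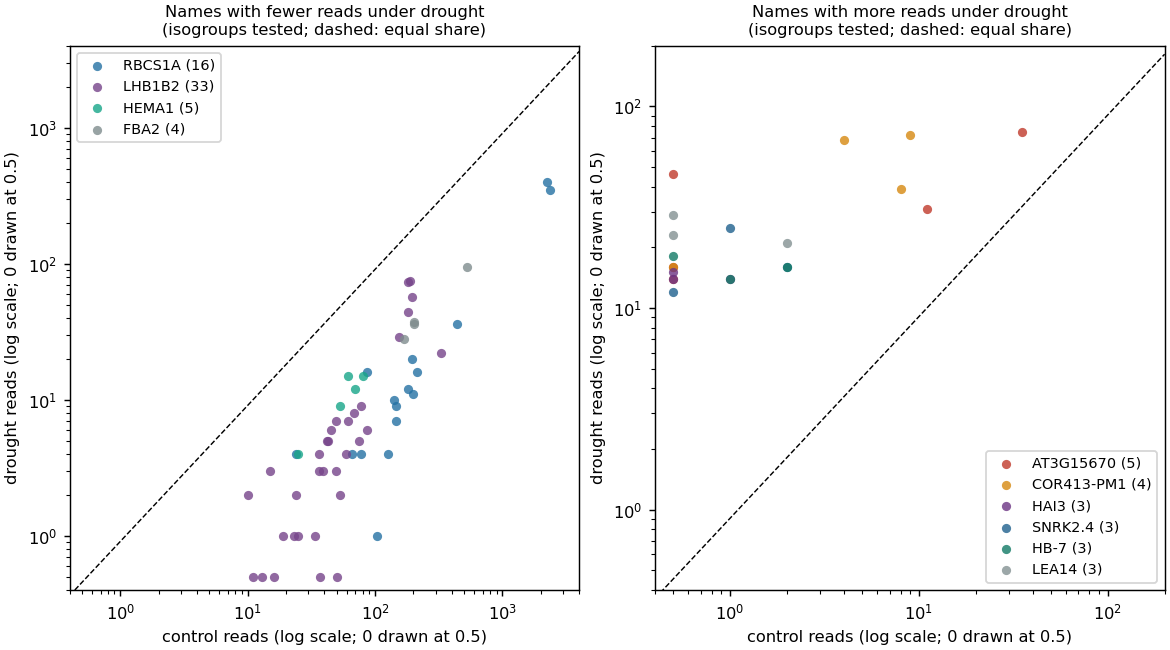
Control reads against drought reads, both on log axes with 0 drawn at 0.5, for isogroups that share a name, given in the legend with its number of isogroups. The dashed line marks an equal share of both libraries. All isogroups of RBCS1A, LHB1B2, HEMA1 and FBA2 lie below the line in the left panel, and all those of AT3G15670, COR413-PM1, HAI3, SNRK2.4, HB-7 and LEA14 lie above it in the right panel.

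The GO terms of the matches were described in the same way, and they share many members with the lists. Of 136 terms with at least 20 isogroups tested, the lowest median log2 ratio was that of light harvesting in photosystem II, -3.15, with 32 of 35 isogroups down-regulated. Of 861 isogroups with the term chloroplast, 209 were down-regulated and 39 up-regulated, and the median was -0.65. The term response to water deprivation had 22 of 81 isogroups up-regulated and 4 down-regulated, with a median of 0.88. Response to salt stress had 31 up-regulated and 4 down-regulated of 138, and response to abscisic acid stimulus 26 and 9 of 107. In this order, the up-regulated shares were 27.2%, 22.5% and 24.3%, against 9.98% of all isogroups tested. The down-regulated shares were 4.94%, 2.90% and 8.41%, against 10.3%. Response to cold differed from these terms, with 9 up-regulated and 35 down-regulated of 132 isogroups and a median of -0.36. The lowest log2 ratio of this term, -5.98, was also the lowest of the RBCS1A isogroups. How far its down-regulated members repeat those of the photosynthesis lists was not tested. The list of cold- and drought-regulated proteins had 9 up-regulated and none down-regulated of 14.

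The root libraries of the same pots were used to compare the size of the leaf ratios. By a test of the difference of the 2 log ratios, with p-values adjusted by Benjamini-Hochberg over 1516 names measured in both tissues, 259 names differed between leaf and root. Of the 20 names with the largest z in leaves, 7 were measured in roots and 5 differed. Choosing names by their leaf ratios favours a difference from root. The test covers counting error only, in 4 libraries without replicates, so it does not reach beyond these libraries. ATMS1 had 80 control and 230 drought reads over its leaf isogroups and 174 and 67 over its root isogroups, a leaf log2 ratio of 1.66 against -1.31 in root. P5CS1 had 1 and 396 reads in leaf and 5 and 53 in root, and its log2 ratio was 4.84 higher in leaf (SE 1.35). SIP2 had more drought reads in both tissues and a smaller ratio in leaf, with 20 and 186 reads against 19 and 999. For BA_1222, with 0 and 269 reads in leaf and 1 and 668 in root, the difference of 0.35 had an SE of 2.36, too wide to compare the tissues.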

How the data were processed

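The authors sequenced cDNA of the 2 leaf libraries on a Roche GS FLX Titanium, joined them in 1 assembly (GS De Novo Assembler) and deposited read counts per isotig and isogroup, in which reads of shared contigs repeat. The deposited RPKM values are the authors' counts per isotig length and library reads. The authors also deposited, for each isotig, the best BLAST match with its E-value, a p-value-like measure, its bit score and its percent identity. Columns of log2 ratios, z-scores, p-values and q-values that the authors made with DEGseq were not used.

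Here the MARS model was written in Python 3.11.15 (numpy 2.4.6, scipy 1.17.1, pandas 2.3.3) and tested on simulated data. It was run on the counts of 1 isotig per isogroup with at least 10 reads, with 0 set to 1, at p under 0.001. Log2 ratios have 0.5 added to each count. Where a library had no read, the fold is a bound against 3 reads in that library and not the limit of an exact interval. Genes named are the 12 isogroups with the largest absolute z in each direction, for each of 31 gene lists the 3 members past the threshold whose z was largest in size, and the 5 isogroups with most reads; others are given where a count or a group called for them. From the lists, 24 entries were removed whose symbol matched but whose protein belongs elsewhere. Gene lists, members and tests were chosen with earlier results of these data known. Alternatives were TMM (edgeR 4.0.16), median-of-ratios size factors (DESeq2 1.42.0), other library totals, Fisher's exact test, the edgeR exact test with an assumed coefficient of variation, and other minimums. Isotig sequences were not used here.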

Additional observations from a re-analysis of the deposited data

Results flagged for a closer look

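For 5 of the names with the largest z in leaves, the log2 ratio differed between the leaf and root libraries. The test was one of the difference itself, on names chosen by their leaf ratios. The differences compare 4 libraries with no replicate, and the names sum several isogroups. The leaf minus root difference of the log2 ratio was 2.97 for ATMS1, a methionine synthase whose reads rose in leaf and were lower under drought in root. It was 4.84 for P5CS1 of proline synthesis, 1.79 for the dehydrin ERD10 and 2.14 for TAR1, and -2.42 for SIP2 of raffinose metabolism, where the root ratio was the larger one. TAR1, a name from the strand opposite to ribosomal RNA genes, had 67 and 237 reads in leaf and 5223 and 4400 in root. Whether ribosomal RNA had a part in its difference was not tested.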

How the results depend on the processing

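No paired analysis was possible because each condition had 1 library. The 342 up-regulated and 354 down-regulated isogroups became 178 and 209 with the edgeR exact test at an assumed coefficient of variation of 0.2, 50 and 33 at 0.4, and 629 and 580 at a Benjamini-Hochberg adjusted p under 0.05; the sums of all isotigs as totals gave 541 up-regulated and 266 down-regulated isogroups. The other scalings, tests and minimums, one of them a scaling to the median of all isogroups that was chosen after seeing the data, gave 229 to 362 up-regulated and 310 to 387 down-regulated isogroups. Of the 92 named isogroups, 22 lost their call at a coefficient of variation of 0.2 and 68 at 0.4, where those that kept it included P5CS1, SIP2, SUS3, HAB2, LHCB4.1 and 1 isogroup each of CA2, RBCS1A and LHB1B2. At 0.4 the light reactions list kept 12 of 74 down-regulated isogroups and the Calvin cycle list 12 of 32, while photorespiration and chlorophyll synthesis kept none. Up-regulated isogroups at 0.4 went from 14 to 1 in the ABA list, from 12 to 3 in the LEA list and from 4 to 2 in the proline list. They went from 9 to 1 among cold- and drought-regulated proteins and from 5 to 1 among lipid transfer proteins. With a minimum of 20 reads, the ABA list had 6 up-regulated isogroups. The named isogroups were run under 11 of the alternatives, 4 of them chosen after seeing the data, and none of those called changed direction; rbcL, not called, became up-regulated with the sums of all isotigs (log2 ratio 0.35), where NIR1, ndhD1, DHAR2 and TT5 lost their call, as TT5 did without the largest isogroup. Pools vary by an unknown amount here, and at 10 to 19 reads only wide differences could pass the test.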

Other observations

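Genes of phosphate starvation, a group chosen after its values were seen, had fewer reads under drought. Of 28 isogroups with the GO term cellular response to phosphate starvation, 1 matched an Escherichia coli protein (AppA, 8 and 14 reads) and was left out. Of the other 27, 13 passed the test as down-regulated and 0 as up-regulated, and their summed reads went from 823 to 244, 3.06 times lower (2.65 to 3.54). SQD2, which makes the sulfolipid that replaces phospholipids in plastid membranes, had 98 control and 10 drought reads in isotig00702, 8.88 times lower (4.63 to 19.1), and 72 and 2 reads in isotig05928. SPX3, a phosphate sensor protein, had 55 and 4 reads (isotig02430), 12.5 times lower (4.60 to 47.4), and SPX2 had 37 and 4 (isotig03823), 8.39 times lower (3.01 to 32.4). GDPD2, a phosphodiesterase that frees glycerol phosphate from lipid breakdown products, is outside the term and had 106 and 6 reads, 16.015 times lower (7.12 to 44.6).

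Aldehyde dehydrogenases and enzymes of or next to the methionine and methyl cycle, also grouped after their values were seen, had more reads under drought. Most of the called aldehyde dehydrogenases were already counted in the list of glycolysis and malate metabolism. Of 10 aldehyde dehydrogenase isogroups, 5 were up-regulated and 1 down-regulated, among them Q9ZPB7, a family 7 member, with 0 and 59 reads, at least 21.7-fold higher, and ALDH5F1 with 11 and 48 reads, 4.81-fold higher (2.47 to 10.3). Of 15 isogroups of the methionine and methyl cycle group, 6 were up-regulated and none down-regulated, with 418 control and 827 drought reads in total. The calls included XPL1 and PMEAMT, which belong to choline synthesis, and MGL, which breaks methionine down. HOG1, MTO1, MTO2, MTO3 and the SAM-2 isogroups were not called. XPL1, the phosphoethanolamine methyltransferase of choline synthesis, had 49 and 160 reads (isotig00442), 3.60-fold higher (2.601 to 5.07), and ADK2, an adenosine kinase, had 10 and 44 (isotig01209), 4.85-fold higher (2.41 to 10.8).

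In 7 isogroups the match was a protein of Escherichia coli at 98% identity, with 987 control and 910 drought reads in total. GlrK had 302 and 77 reads, YfhM 106 and 242, and OmpN 399 and 407.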
